A study of Homo sapiens with 9 samples.

Results

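PC3 cells, an androgen-independent prostate cancer line derived from a bone metastasis, were cultured with primary mouse osteoblasts to which recombinant human sclerostin (rhSOST) had been added, and were compared with PC3 cells cultured alone. The comparison used 5 of the 9 arrays of the series: 3 of PC3 cells with wild type osteoblasts and rhSOST (OB WT + rhSOST) and 2 of untreated PC3 cells. All 5 were chosen by their labels, and no measured value was used. The osteoblasts came from the calvaria of mouse pups 4 to 5 days old. The study's methods give the wild type strain as C57BL/6J and its results as C57BL/6N. They sat on porous inserts above the PC3 cells, so the cells shared medium without contact. rhSOST was at 100 ng/ml, and RNA was taken after 48 h in both groups. Untreated PC3 cells received neither osteoblasts nor protein. PC3 cells with wild type osteoblasts alone, or with rhSOST alone, were not analysed here, so the osteoblasts and the sclerostin cannot be told apart in any difference below. Of the other 4 arrays, 2 were of PC3 cells with osteoblasts of Sost knockout mice (OB SostKO). The other 2 had wild type osteoblasts and recombinant human DKK1 at 100 ng/ml (OB WT + rhDKK1). These 4 entered the filter, the choice of each gene's brightest probe set and the estimate of the spread. Their values stand beside some results below, and they were compared directly with OB WT + rhSOST at the end. The labels call the replicates biological but do not say whether cultures or osteoblast preparations were separate, so p-values measure the spread between these arrays.

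Sclerostin is the product of SOST and is secreted mainly by osteocytes. It binds the co-receptors LRP5 and LRP6 and hinders Wnt ligands from assembling them with Frizzled receptors, which keeps beta-catenin low, and its loss gives high bone mass. DKK1 acts on the same co-receptors. Prostate cancer cells in bone exchange Wnt ligands, Wnt inhibitors, cytokines and growth factors with osteoblasts, and the study asked how osteoblasts with more or less Wnt signaling alter invasive PC3 cells.

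All 8 epithelial and PC3 markers (keratins 7, 8, 18 and 19, EPCAM, CD44, VIM and MET) were bright on the 5 arrays, and SOST itself was at 3.24 to 3.35 on the log2 scale of the array, below the level used to keep a probe set. Of the 8, KRT7 fell, from 13.1 to 13.2 in untreated PC3 to 12.5 to 12.9 (-0.51, adjusted p = 0.0389), and missed without either untreated array or rhSOST array 1 or 2 (up to 0.154). Of the markers of osteoblasts, fibroblasts, blood and endothelial cells, 16 were bright enough to be tested and 1 rose: COL3A1, a fibroblast collagen, was at 4.70 to 4.83 in untreated PC3 and 5.19 to 5.28 with OB WT + rhSOST, and it missed the threshold without either untreated array. On both untreated arrays COL3A1 was below the level used to keep a probe set (4.90 and 4.86), so only co-culture arrays kept it. Another fibroblast gene, PDGFRA, was at 5.63 to 6.18 against 6.55 to 6.70, without overlap, and did not pass (0.73 ± 0.19, adjusted p = 0.057). The osteoblast genes SPP1 and DMP1, the fibroblast genes LUM and POSTN and the leukocyte gene PTPRC stayed between 2.71 and 4 in both groups. The osteoblast gene RUNX2 was brighter, at 8.87 to 8.91 in untreated PC3 against 8.96 to 9.16, without overlap, and did not pass. PHEX, CD79A and PECAM1, of the osteoblast, blood cell and endothelial lists, lay between 6.03 and 7.89 in both groups and overlapped. Of genes PC3 cells are known to lack, KLK3 was at 6.93 to 7.34 against 6.73 to 7.16. KLK2 was at 5.09 to 5.52 against 5.04 to 5.24, and neither passed. COL1A1, the main collagen of bone, was at 8.92 to 9.13 against 9.31 to 9.77 and did not pass. Whether mouse RNA could reach the human probes was not tested. The spiked poly-A control RNAs, bacterial transcripts added before labelling, stood at 11.16 and 11.81 on the untreated arrays but at 6.67, 7.37 and 6.82 on the rhSOST arrays, and at 6.49 to 6.87 on the other 4 co-culture arrays. The 3′ minus 5′ difference of the ACTB control probe sets, a sign of RNA or labelling length, was 0.50 and 0.88 on the untreated arrays and 2.06, 1.44 and 1.32 on the rhSOST arrays. Neither control overlapped between the groups (p = 0.1 in a two-sided exact permutation test, which with 3 and 2 arrays cannot go lower). Labelling and co-culture therefore cannot be told apart from these arrays, and the part of either control in the changes below was not tested.

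Few genes differed by 2-fold or more. Of 14863 genes tested, each represented by its brightest probe set, 19 were at least 2-fold higher and 19 at least 2-fold lower with OB WT + rhSOST at a Benjamini-Hochberg adjusted p under 0.05 (limma), or 0.128% of the genes in each direction and 0.256% together. In all 38 the 3 rhSOST arrays lay on one side of both untreated arrays, against 24.7% of all genes with all 3 above and 16.3% with all 3 below. NRK and LINC01085 were below the level used to keep a probe set on both untreated arrays, and BMP2 on every co-culture array. Each was thus kept only through the arrays where it was higher. All 38 were also called with no filter. RNA of a whole culture was measured, so fewer cells of a kind and less RNA per cell cannot be told apart. At the adjusted p alone, 724 genes were higher (4.87%) and 312 lower (2.1%), or 6.97% together. These shares over all genes are the background for each list count below. The median SE of a log2 fold change was 0.0946, and the median log2 fold change of all genes was 0.0191. Among the 19 that fell were 6 cytokines and chemokines (IL6, CXCL1, CXCL2, CXCL3, IL23A, IL24), 3 regulators around NF-kB (TNFAIP3, NFKBIA, IRAK2) and the stress factor ATF3. Those that rose included a growth factor binding protein (IGFBP5), a cytokine (IL33), a protocadherin (PCDH18) and 2 long noncoding RNAs (LINC00261, LINC01085).

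**Figure D1:**
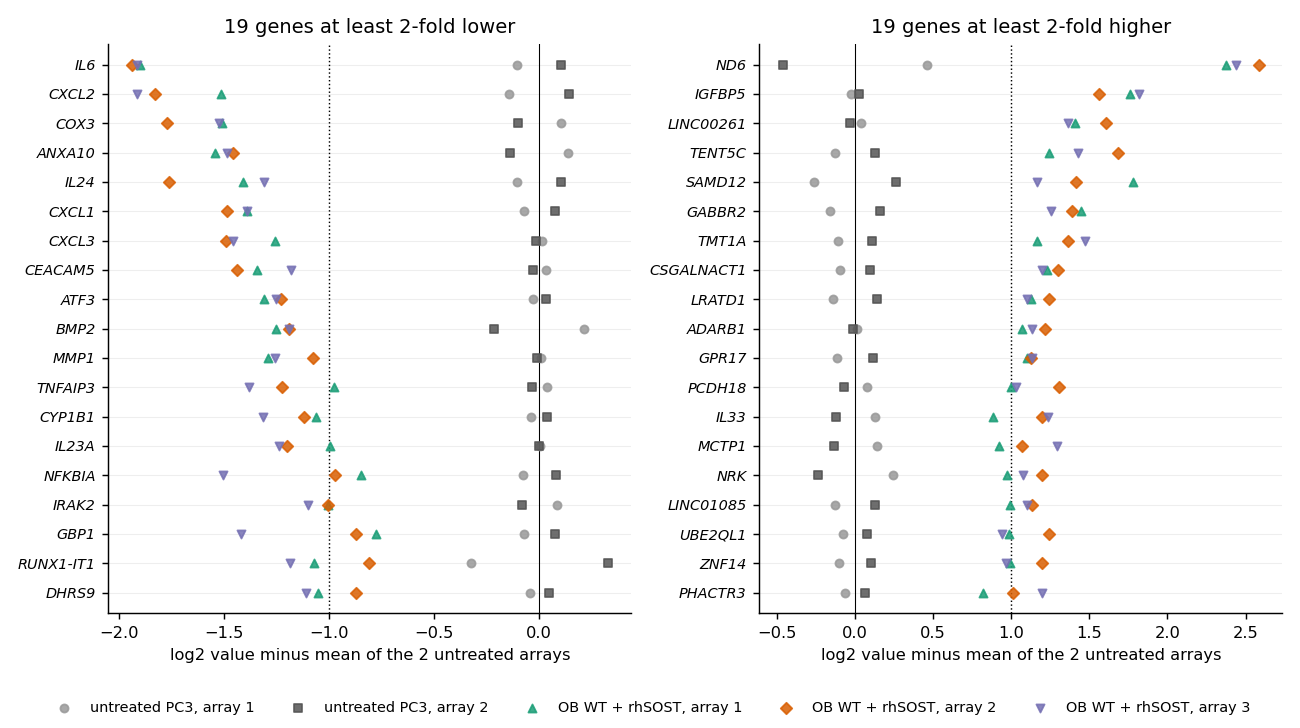
Log2 value of each array minus the mean of the 2 untreated arrays (x axis) for the 19 genes at least 2-fold lower (left) and the 19 at least 2-fold higher (right) with OB WT + rhSOST; each symbol is 1 array, and the dotted line marks 2-fold. The 3 rhSOST arrays sit on the same side of both untreated arrays in all 38 genes, and array 3 stands farthest out for NFKBIA and GBP1.

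Interleukin 6, a cytokine that acts through STAT3 and is abundant in advanced prostate cancer, fell the most of the 14863 genes tested. IL6 was at 9.90 and 10.12 on the untreated arrays and at 8.11, 8.08 and 8.10 on rhSOST arrays 1, 2 and 3. The 3 rhSOST arrays lay close together, far below both untreated arrays. The fall of 1.92 ± 0.11 (log2 fold change ± SE, 2 against 3 arrays, adjusted p = 0.000226) made it 3.77-fold lower. Of the CXC chemokines that draw neutrophils through CXCR2, CXCL1, CXCL2 and CXCL3 fell with it. CXCL5 did not pass at its brightest probe set (-0.29, limma adjusted p = 0.092). CXCL1 went from 12.82 and 12.97 to 11.51, 11.42 and 11.51, a fall of 1.42 ± 0.0805, adjusted p = 0.000226. CXCL2 went from 9.88 and 10.16 to 8.51, 8.19 and 8.11, with array 1 the least reduced, a fall of 1.75 ± 0.13, adjusted p = 0.000505. CXCL2 was measured only by an x_at probe set, a kind whose probes may cross-hybridize. CXCL3 went from 9.39 and 9.36 to 8.12, 7.89 and 7.92. For IL6, CXCL1, CXCL2 and CXCL3 the groups were far apart and did not overlap. All 4 passed the test whichever of the 5 arrays was left out.

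Among other cytokines, IL24, an IL-10 family member first described in melanoma differentiation, was at 8.77 and 8.98 on the untreated arrays and 7.47, 7.12 and 7.57 on the rhSOST arrays. IL23A, the p19 chain of interleukin 23, was at 8.66 and 8.66 against 7.66, 7.46 and 7.42. IL1B, a secreted form of interleukin 1 that starts many inflammatory programs, was at 11.74 and 11.35 against 10.71, 10.69 and 10.71, a fall of 0.85 ± 0.11, adjusted p = 0.00441. CXCL8 (interleukin 8) was at 13.50 and 13.24 against 12.77, 12.74 and 12.83, and CXCL6 at 11.90 and 11.67 against 11.30, 11.34 and 11.35. The rhSOST arrays were below both untreated arrays for all 5. CXCL8 missed the threshold without untreated array 1 (adjusted p = 0.0566), and CXCL6 without untreated array 1, rhSOST array 1 or rhSOST array 2 (up to 0.114). CXCL8 is close to the top of the array's range at this probe set, which is also an x_at one. A second, dimmer CXCL8 probe set fell by 1.44, from 12.31 and 12.16 to 10.81, 10.80 and 10.79.

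Of the members that rose, TNFSF15, a TNF family ligand of DR3, was at 6.18 and 6.14 on the untreated arrays and 7.02, 7.14 and 7.19 on the rhSOST arrays, a rise of 0.96 ± 0.088, adjusted p = 0.00154. IL33, a nuclear alarmin released from damaged cells, was at 7.13 and 6.88 against 7.89, 8.20 and 8.24, a rise of 1.10 ± 0.21, adjusted p = 0.0211. The rise of IL33 missed the threshold without either untreated array or without rhSOST array 2, with an adjusted p of up to 0.106. Of the 18 cytokines and chemokines tested, 9 fell, 2 rose and 7 did not pass, and the median log2 fold change was -0.373. Of their receptors, 2 of 21 rose: IL1RL1, the receptor of IL33, from 8.44 and 8.46 to 8.91, 9.06 and 8.99, and IL13RA1 from 9.83 and 9.82 to 10.08, 10.24 and 10.16; none fell. IL1RL1 missed without untreated array 1, IL13RA1 held only with all 5 arrays, and the mean of the latter's probe sets turned the sign.

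Genes that feed back on NF-kB, the transcription factor that drives many of these cytokines, fell alongside. TNFAIP3 (A20), a ubiquitin-editing enzyme that shuts the pathway off, was at 10.97 and 10.90 on the untreated arrays and 9.96, 9.71 and 9.55 on the rhSOST arrays, a fall of 1.19 ± 0.12, adjusted p = 0.00227. NFKBIA, the inhibitor that holds NF-kB in the cytoplasm, was at 11.51 and 11.67 against 10.75, 10.62 and 10.09, a fall of 1.11 ± 0.17, adjusted p = 0.00919. Array 3 was the lowest for both. NFKBIA missed the threshold without either untreated array, and a second, dim probe set of the gene differed by 0.05.

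IRAK2, a kinase of the interleukin 1 and Toll-like receptor pathway, was at 9.43 and 9.26 against 8.34, 8.34 and 8.25, adjusted p = 0.000729. RELB, a subunit of the noncanonical pathway, was at 7.52 and 7.45 against 6.70, 6.57 and 6.79, and NFKBIZ, a nuclear co-activator of IL6, at 9.28 and 9.35 against 8.46, 8.43 and 8.69. IRF1, an interferon regulatory factor, was at 7.78 and 7.65 against 7.07, 7.01 and 7.23, and ICAM1, an adhesion molecule for leukocytes, at 8.19 and 8.15 against 7.58, 7.49 and 7.68. None of the 5 overlapped between groups, though IRF1 missed the threshold without untreated array 1 and ICAM1 without either untreated array. Of 22 genes of the NF-kB list 8 fell, none rose and 14 did not pass, with a median of -0.27. All 3 rhSOST arrays lay below both untreated arrays for 16 of the 22, against 16.3% of all genes. Without untreated array 1 the number that fell was 4, and without untreated array 2 it was 5.

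The proximal promoters of several of these genes share a sequence. A stretch of 300 bases (250 before to 50 after the annotated start, RefSeq, GRCh38.p14) was given for 15 of the 19 genes that fell by 2-fold or more and for 15 of the 19 that rose. The letters GGGANNTTCC, a common form of the kB element to which NF-kB binds, were searched on both strands. They occurred in 6 of the 15 that fell (40%), in 0 of the 15 that rose, in 1.63% of all 27305 promoters and in 1.64% of those of the tested genes. The 6 were IL6, CXCL1, CXCL2, CXCL3, TNFAIP3 and NFKBIA. TGANTCA, a form of the AP-1 element, occurred in 1 of the 15 (IL23A), in 0 of the 15 in 7.76% of all promoters and in 5.01% of those of the tested genes. These genes include textbook NF-kB targets, and a match of letters is a description of the sequence, not of binding in these cells. The 6 are shown 5′ to 3′ on the gene's own strand, with the match in capitals. In CXCL1, CXCL2 and CXCL3 the letters match on both strands, 1 base apart, and these 3 genes lie close together on chromosome 4.

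IL6: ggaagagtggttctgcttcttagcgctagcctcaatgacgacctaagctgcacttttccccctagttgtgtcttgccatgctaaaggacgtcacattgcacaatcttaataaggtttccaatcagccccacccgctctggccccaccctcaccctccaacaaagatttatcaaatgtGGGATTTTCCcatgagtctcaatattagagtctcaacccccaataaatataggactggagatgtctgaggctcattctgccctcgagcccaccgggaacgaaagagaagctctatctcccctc
CXCL1: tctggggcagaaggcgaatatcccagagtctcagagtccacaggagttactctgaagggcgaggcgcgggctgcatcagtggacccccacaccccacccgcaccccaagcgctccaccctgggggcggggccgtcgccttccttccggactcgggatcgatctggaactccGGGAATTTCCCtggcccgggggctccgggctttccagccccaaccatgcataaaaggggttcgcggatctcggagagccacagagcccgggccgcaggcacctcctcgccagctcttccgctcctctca
CXCL2: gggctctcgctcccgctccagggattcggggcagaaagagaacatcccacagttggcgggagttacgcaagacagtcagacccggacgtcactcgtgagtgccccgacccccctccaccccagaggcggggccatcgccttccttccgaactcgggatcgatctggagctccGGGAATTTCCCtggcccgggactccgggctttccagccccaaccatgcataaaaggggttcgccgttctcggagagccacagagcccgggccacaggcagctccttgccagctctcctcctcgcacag
CXCL3: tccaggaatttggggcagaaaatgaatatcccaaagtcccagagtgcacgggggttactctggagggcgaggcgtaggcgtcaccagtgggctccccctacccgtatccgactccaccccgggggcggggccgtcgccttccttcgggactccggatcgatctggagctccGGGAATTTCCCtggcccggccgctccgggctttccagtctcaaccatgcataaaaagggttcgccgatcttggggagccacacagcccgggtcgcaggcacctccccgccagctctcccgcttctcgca
TNFAIP3: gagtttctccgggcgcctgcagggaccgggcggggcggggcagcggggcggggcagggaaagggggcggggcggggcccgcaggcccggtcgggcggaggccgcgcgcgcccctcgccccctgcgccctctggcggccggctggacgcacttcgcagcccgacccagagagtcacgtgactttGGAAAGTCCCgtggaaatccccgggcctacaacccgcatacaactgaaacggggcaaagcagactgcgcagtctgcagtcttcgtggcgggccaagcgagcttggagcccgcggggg
NFKBIA: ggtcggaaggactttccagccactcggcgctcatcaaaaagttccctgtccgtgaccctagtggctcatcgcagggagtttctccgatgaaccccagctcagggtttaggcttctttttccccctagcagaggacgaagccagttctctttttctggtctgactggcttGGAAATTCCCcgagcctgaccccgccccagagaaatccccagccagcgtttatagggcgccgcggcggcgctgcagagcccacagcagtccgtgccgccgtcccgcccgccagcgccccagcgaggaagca

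In these 6 promoters the first base of the match lay between -81 and -67 relative to the annotated start: at -73 in IL6, -79 in CXCL1, -78 in CXCL2, -79 in CXCL3, -67 in TNFAIP3 and -81 in NFKBIA. The IL6 promoter lies at chr7:22726950-22727249 on the plus strand. Those of the chemokines lie at chr4:73869143-73869442 on the plus strand (CXCL1), chr4:74099146-74099445 on the minus strand (CXCL2) and chr4:74038640-74038939 on the minus strand (CXCL3). TNFAIP3 is at chr6:137867009-137867308 on the plus strand and NFKBIA at chr14:35404700-35404999 on the minus strand.

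Immediate early genes, which respond to growth factors and stress within minutes without new protein, fell more often than they rose. Of 34 tested 12 fell, none rose and 22 did not pass, and the median was -0.275. All 3 rhSOST arrays lay below both untreated arrays for 25, against 16.3% of all genes. ATF3, a stress-induced repressor, was at 9.19 and 9.25 on the untreated arrays and 7.91, 7.99 and 7.97 on the rhSOST arrays, a fall of 1.26 ± 0.0887, adjusted p = 0.000411. GADD45A, a growth arrest and DNA damage gene, was at 12.38 and 12.52 against 11.59, 11.52 and 11.50, adjusted p = 0.00129. DUSP1, a phosphatase that switches MAP kinases off, was at 10.49 and 10.64 against 9.78, 9.82 and 9.73.

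KLF6, a zinc finger factor studied as a tumor suppressor in prostate, was at 11.59 and 11.64 against 10.93, 10.83 and 10.99, and CCN2 (connective tissue growth factor), a matricellular protein, at 10.32 and 10.33 against 9.68, 9.76 and 9.58. FOS, the partner of JUN in AP-1, was low, at 5.05 and 4.998 against 4.37, 4.48 and 4.37. Its rhSOST values were below the level used to keep a probe set. The rhSOST arrays were tight for these 3 and lay below both untreated arrays, and FOS alone of the 3 missed the threshold without untreated array 1. The number of the list that fell was 5 without untreated array 1, 7 without untreated array 2 and 7 without rhSOST array 2. Of the genes above, ATF3, GADD45A, DUSP1, KLF6 and CCN2 passed whichever array was left out.

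Of growth factor genes, 1 of 10 genes of the EGF family fell: HBEGF, a membrane-anchored ligand of the EGF receptor, from 10.30 and 10.31 to 9.47, 9.47 and 9.59 (-0.79 ± 0.0709, adjusted p = 0.00137), and it passed with any array left out. Of 15 ERK feedback genes, the EGF receptor inhibitor ERRFI1 fell from 12.26 and 12.24 to 11.78, 11.87 and 11.80 and the Sprouty gene SPRY2 from 10.34 and 10.38 to 9.91, 10.02 and 9.98, while the ETS factor ETV5 rose from 8.99 and 9.07 to 9.36, 9.40 and 9.61. ERRFI1 missed the threshold without untreated array 1. SPRY2 missed it without either untreated array or rhSOST array 1 or 2, and ETV5 without either untreated array or rhSOST array 2. Of 8 targets of the aryl hydrocarbon receptor 2 fell. CYP1B1, a P450 enzyme that metabolizes estrogens and hydrocarbons, was at 9.50 and 9.57 against 8.47, 8.42 and 8.22, a fall of 1.16 ± 0.0855, adjusted p = 0.000474. TIPARP, a feedback ADP-ribosyltransferase of that receptor, was at 11.12 and 11.07 against 10.63, 10.76 and 10.71, and missed without either untreated array or rhSOST array 1.

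Other genes that fell by 2-fold or more were of varied function. ANXA10, a calcium-dependent phospholipid binding annexin, was at 8.96 and 8.69 against 7.29, 7.37 and 7.34, a fall of 1.49 ± 0.11, adjusted p = 0.00045. CEACAM5, the carcinoembryonic antigen, an adhesion molecule, was at 8.60 and 8.54 against 7.23, 7.13 and 7.39. BMP2, a bone morphogenetic protein that drives osteoblast differentiation, was low, at 5.86 and 5.43 against 4.39, 4.46 and 4.45, a fall of 1.21 ± 0.12, adjusted p = 0.00227. The untreated arrays differed more from each other than the rhSOST arrays did for BMP2, but the groups did not overlap. MMP1, interstitial collagenase, was at 7.30 and 7.28 against 5.999, 6.21 and 6.03. DHRS9, a retinol and steroid dehydrogenase, GBP1, an interferon-induced GTPase, and RUNX1-IT1, an intronic transcript of RUNX1, fell by 1.01, 1.02 and 1.02. GBP1 missed the threshold without either untreated array, RUNX1-IT1 without untreated array 2 or rhSOST array 1, and CEACAM5 without untreated array 1.

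The largest rise of a nuclear gene was that of IGFBP5, a secreted binding protein of insulin-like growth factors that is abundant in bone matrix. IGFBP5 was at 8.16 and 8.21 on the untreated arrays and 9.95, 9.75 and 10.003 on the rhSOST arrays, a rise of 1.71 ± 0.11 (adjusted p = 0.000226), or 3.28-fold. All 6 of its kept probe sets were higher on average, by 0.88 to 1.81. Of the 15 genes of the IGF system tested, IRS1, an adaptor of the IGF and insulin receptors, also rose, from 10.23 and 10.28 to 10.57, 10.52 and 10.50, but not with any array left out. LINC00261, a noncoding RNA next to FOXA2, was at 6.93 and 6.86 against 8.30, 8.50 and 8.26, a rise of 1.46 ± 0.0894, adjusted p = 0.000226. TENT5C, a poly(A) polymerase, was at 6.53 and 6.78 against 7.90, 8.34 and 8.09. SAMD12, a sterile alpha motif gene, was at 4.70 and 5.23 against 6.74, 6.37 and 6.12, with array 1 highest.

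GABBR2, a subunit of the GABA-B receptor, was at 5.53 and 5.85 against 7.13, 7.07 and 6.94. TMT1A, a thiol methyltransferase, was at 5.13 and 5.35 against 6.40, 6.60 and 6.71, CSGALNACT1, which starts chondroitin sulfate chains, at 5.82 and 6.01 against 7.14, 7.22 and 7.11, and LRATD1 at 8.48 and 8.76 against 9.75, 9.86 and 9.72. These 4 did not overlap between groups. ADARB1, an RNA-editing deaminase, was at 7.13 and 7.10 against 8.19, 8.33 and 8.25, a rise of 1.14 ± 0.0687, adjusted p = 0.000226. SAMD12 and TMT1A missed the threshold without untreated array 1. The other genes past 2-fold, GPR17, PCDH18, IL33, MCTP1, NRK, LINC01085, UBE2QL1, ZNF14 and PHACTR3, rose by 1.01 to 1.12. Of these PHACTR3 missed without untreated array 1, and MCTP1 and NRK without untreated array 2.

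Not every probe set of a gene moved with it. Of 18 changed genes with several kept probe sets, 14 had all of them on the same side. In NFKBIA, ADARB1, LRATD1 and TMT1A they differed in sign. The same side did not mean a like change. Among the 14, dimmer probe sets of PCDH18, GABBR2, CEACAM5, TENT5C and ATF3 differed by only 0.07, 0.14, -0.21, 0.25 and -0.22. None of these probe sets passed over all probe sets (limma, adjusted p of 0.323 to 0.722). For TMT1A the probe set that stood for the gene rose by 1.33, while the other two differed by -0.05 and -0.20. For LRATD1 another probe set rose by 1.70 and the opposing one differed by -0.04.

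Transcripts of the mitochondrial genome, which encode subunits of the respiratory chain, went in opposite directions. ND6, the one protein gene on the light strand, was at 7.57 and 6.64 on the untreated arrays, far apart from each other, and 9.48, 9.69 and 9.54 on the rhSOST arrays, a rise of 2.47 ± 0.29 (adjusted p = 0.00346), the largest of any gene tested. COX3 was at 9.34 and 9.14 against 7.73, 7.47 and 7.72, a fall of 1.60 ± 0.10, adjusted p = 0.000239. COX1 fell from 13.90 and 14.12 to 13.50, 13.28 and 13.27, adjusted p = 0.0135, and missed without either untreated array or without rhSOST array 2 (up to 0.0799). Of 7 measured, 1 rose, 2 fell and 4 did not pass. All but ND6 had the rhSOST arrays below both untreated arrays, against 16.3% of all genes. The array's probes do not tell transcripts of the mitochondrion from nuclear copies, and COX3 was measured by an x_at probe set, a kind whose probes may cross-hybridize.

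The Wnt pathway, which sclerostin acts on, moved little. Of 14 Wnt ligands and R-spondins tested, 1 fell and 13 did not pass: WNT10B, a ligand that promotes bone formation, was at 7.46 and 7.46 on the untreated arrays and 7.11, 7.04 and 7.14 on the rhSOST arrays, -0.36 ± 0.0635, adjusted p = 0.0143. It missed the threshold without either untreated array or without rhSOST array 2 (adjusted p up to 0.099). Next by p was WNT2, at 4.89 and 5.16 against 4.80, 4.94 and 4.82, adjusted p = 0.422. Of 6 genes tested from the list of secreted inhibitors none passed. DKK1 was the brightest and close to the top of the range, at 14.01 and 13.99 against 13.91, 13.90 and 13.96 (-0.07 ± 0.0627, adjusted p = 0.517). KREMEN2, a DKK co-receptor and not itself secreted, was at 6.85 and 6.93 against 6.996, 7.07 and 6.98. The deacylase NOTUM was at 6.78 and 6.94 against 6.72, 6.55 and 6.77. SOST, FRZB, WIF1 and SFRP4 were below the level used to keep probe sets.

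Of 17 Wnt receptors and co-receptors tested 3 rose, none fell and 14 did not pass, with a median of 0.167. On all 3 rhSOST arrays 9 were above both untreated arrays and 1 below, against 24.7% and 16.3% of all genes. FZD4, a Frizzled receptor, was at 8.17 and 7.95 on the untreated arrays and 8.54, 8.55 and 8.84 on the rhSOST arrays, a rise of 0.58 ± 0.11, adjusted p = 0.0215. LRP6, the co-receptor that sclerostin binds, was at 7.68 and 7.69 against 7.96, 8.12 and 8.24, a rise of 0.42 ± 0.0871, adjusted p = 0.0254. Its other 2 kept probe sets differed by 0.0017 and 0.0071. FZD2 was at 8.85 and 8.98 against 9.21, 9.31 and 9.31, and missed without rhSOST array 3. None of the 3 passed without either untreated array or without rhSOST array 2. LRP5 was the noisiest, at 7.89 and 8.30 on the untreated arrays and 8.32, 7.87 and 8.59 on the rhSOST arrays, a log2 fold change of 0.17 ± 0.34, adjusted p = 0.82; its groups overlapped.

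Inside the cell, 2 of 22 genes rose: BCL9, a co-activator of beta-catenin, from 6.84 and 6.95 to 7.20, 7.17 and 7.22, and the transcription factor TCF7L2 from 10.44 and 10.50 to 10.70, 10.81 and 10.82. Neither passed when any of the 5 arrays was left out. CTNNB1, beta-catenin itself, was at 12.24 and 11.98 against 12.29, 12.52 and 12.06, with arrays 1 and 2 above and array 3 within the untreated range (0.19 ± 0.14, adjusted p = 0.458). Of 25 Wnt target genes 3 fell, none rose and 22 did not pass, with a median of -0.0787. MYC was at 12.12 and 12.21 against 11.68, 11.74 and 11.81, a fall of 0.42 ± 0.0742, adjusted p = 0.014. PPARD, a nuclear receptor for fatty acids, was at 11.18 and 11.08 against 10.74, 10.57 and 10.69, and BMP4 at 8.52 and 8.57 against 8.24, 8.19 and 8.28. MYC is also on the immediate early list. AXIN2, the feedback gene most used to read Wnt activity, was at 6.40 and 6.32 against 6.57, 6.56 and 6.46 (0.17 ± 0.0877, adjusted p = 0.29), and was chosen for mention after its values were seen. MYC, PPARD and BMP4 missed without untreated array 1 or without rhSOST array 2. MYC and BMP4 also missed without untreated array 2, and BMP4 without rhSOST array 1.

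**Figure D2:**
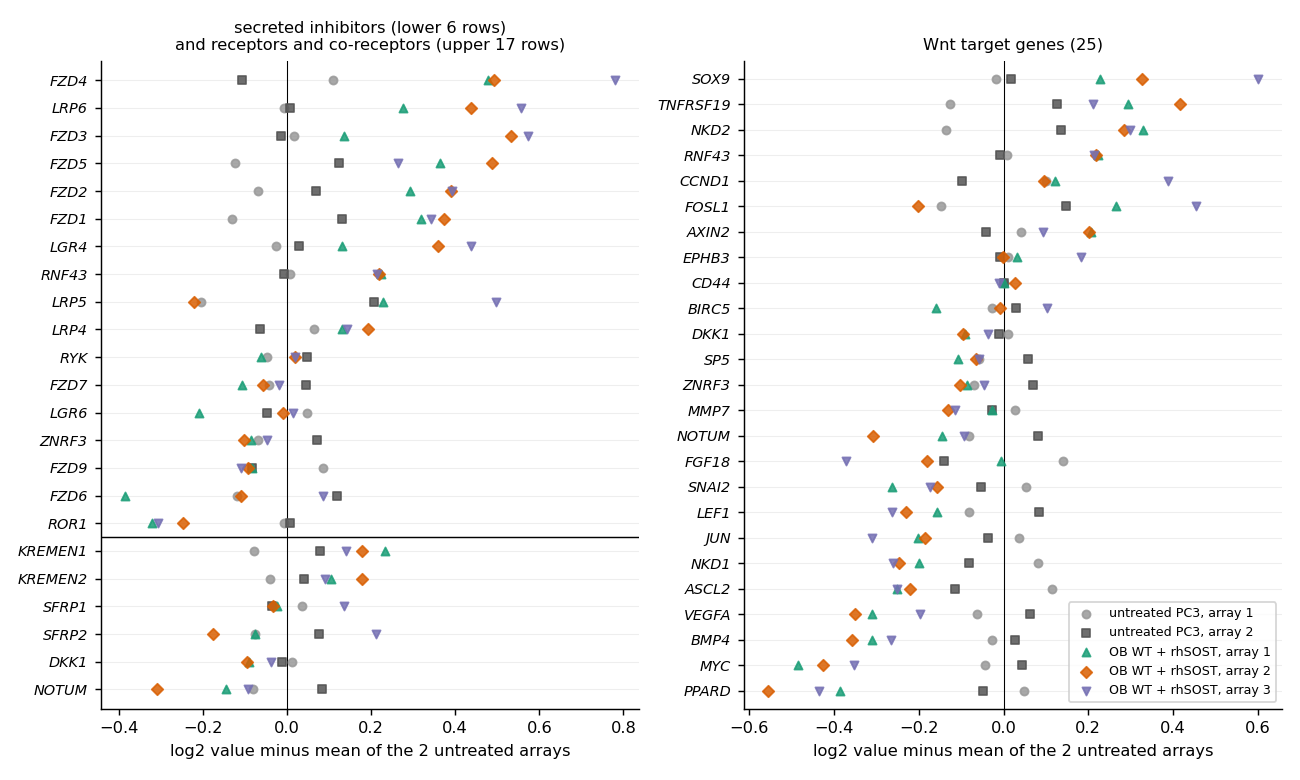
Log2 value of each array minus the mean of the 2 untreated arrays (x axis) for the 17 Wnt receptors and co-receptors and 6 genes of the secreted inhibitor list (left) and the 25 Wnt target genes (right). Each symbol is 1 array. FZD4, LRP6 and FZD2 have all rhSOST arrays to the right and MYC, PPARD and BMP4 all to the left, while LRP5 overlaps; no gene is past 2-fold on any rhSOST array.

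The BMP and TGF-beta families share cells and antagonists with Wnt in bone. Of 13 ligands 2 rose and 2 fell. INHBB, an inhibin and activin subunit, rose from 12.06 and 12.20 to 12.58, 12.59 and 12.62, and GDF15, a stress-induced TGF-beta relative, from 7.83 and 7.89 to 8.23, 8.24 and 8.24. The ligands that fell were BMP2, above, and BMP4. Of 26 receptors, SMADs and antagonists, TGFBR3 (betaglycan) rose from 6.74 and 6.95 to 7.38, 7.51 and 7.56 and BMPR1B from 7.48 and 7.85 to 8.09, 8.24 and 8.40. ID3, a direct target of BMP signaling, fell from 10.33 and 10.25 to 9.57, 9.47 and 9.28 (adjusted p = 0.00441), NOG (noggin), a BMP antagonist, from 9.06 and 9.34 to 8.56, 8.51 and 8.23, and SMAD7, an inhibitory SMAD, from 6.29 and 6.47 to 5.93, 5.81 and 5.81. CRIM1, a transmembrane protein that binds BMPs, was at 9.65 and 9.79 against 9.89, 9.94 and 9.81 (0.16 ± 0.0796, adjusted p = 0.264). Of its other 2 kept probe sets, one differed by 0.05 and did not pass, and the other was at 9.07 and 9.11 on the untreated arrays and 10.17, 9.85 and 8.67 on the rhSOST arrays, higher on arrays 1 and 2 and lower on array 3. The other 4 co-culture arrays were at 10.06 to 10.20 there, and the rhSOST difference did not pass over all probe sets (adjusted p = 0.546). BMPR1B and SMAD7 did not pass with any array left out, TGFBR3, ID3, GDF15 and INHBB missed without untreated array 1, and NOG without untreated array 2. GDF15 also missed without rhSOST array 2.

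Genes of invasion and adhesion mostly did not pass. Of 27 proteases and inhibitors 2 fell, MMP1 and the matriptase gene ST14 (10.58 and 10.66 against 10.26, 10.28 and 10.38, missed without either untreated array or rhSOST array 1 or 2), and 1 rose, TIMP2 (11.70 and 11.73 against 12.03, 11.96 and 12.10), which did not pass with any array left out. Of 25 genes of cell-matrix adhesion none passed at its brightest probe set. The nearest by p were FERMT2 (kindlin 2), at 12.06 and 11.995 against 11.66, 11.86 and 11.65 (adjusted p = 0.0573), and the integrin ITGAV, at 10.98 and 10.84 against 10.36, 10.58 and 10.57. A dimmer FERMT2 probe set fell by 0.64, from 10.26 and 10.21 to 9.46, 9.65 and 9.67. It passed over all probe sets (limma, adjusted p = 0.014), and the remaining kept FERMT2 probe set did not (adjusted p = 0.542). Of 44 genes of actin and filopodia 3 rose and 3 fell. MYH10, nonmuscle myosin IIB, rose from 10.21 and 10.12 to 10.64, 10.65 and 10.60 whichever array was left out. PALMD (palmdelphin) and WASL, an activator of actin nucleation, rose by 0.52 and 0.46, and RHOF, a filopodial GTPase, LIMA1 and LCP1 (plastin) fell by 0.60, 0.44 and 0.54. PALMD, WASL, RHOF, LIMA1 and LCP1 missed without untreated array 1. WASL, LIMA1 and LCP1 also missed without rhSOST array 2, and LIMA1 and LCP1 without rhSOST array 1. Array 3 was nearest to the untreated arrays for LCP1, at 9.68, 9.72 and 10.14 on the 3 rhSOST arrays against 10.38 and 10.40.

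The filopodial motor MYO10 was at 10.49 and 10.52 against 10.49, 10.48 and 10.61 (adjusted p = 0.929), SEPTIN7 at 12.16 and 12.12 against 11.93, 11.98 and 12.11, and the calponin CNN3 at 12.38 and 12.40 against 11.94, 12.16 and 12.24 (-0.28 ± 0.0977, adjusted p = 0.131); none passed. At a dimmer probe set each of the 3 split by array. MYO10 was at 7.12 and 8.29 on the untreated arrays and 9.01, 8.74 and 7.26 on the rhSOST arrays, against 9.19 to 9.27 on the other 4 co-culture arrays. SEPTIN7 was at 4.57 and 4.62 against 6.72, 6.48 and 3.87, with the other co-cultures at 6.12 to 6.94. CNN3 was at 8.98 and 7.74 against 9.93, 9.50 and 7.86, with the other co-cultures at 9.70 to 9.88. In these, rhSOST arrays 1 and 2 were higher than both untreated arrays and array 3 was not, and none passed over all probe sets (adjusted p = 0.567, 0.49 and 0.553). A further probe set of MYO10 fell by 0.53, from 7.21 and 7.35 to 6.79, 6.87 and 6.60 (adjusted p = 0.0402). Of 30 genes of cell-cell junctions, PCDH18 and CDH11 rose and CEACAM5 fell. PCDH18 was at 6.22 and 6.07 against 7.14, 7.45 and 7.18. CDH11, osteoblast cadherin, which PC3 cells express, was at 10.62 and 10.60 against 11.02, 11.09 and 10.98. CDH11 missed without either untreated array or rhSOST array 2. PKP4 (plakophilin 4) was at 9.29 and 9.41 against 9.50, 9.64 and 9.53 (adjusted p = 0.134). A dimmer PKP4 probe set was at 7.19 and 7.99 against 8.99, 7.98 and 6.94, with the other co-cultures at 8.37 to 8.96. It did not pass over all probe sets (limma, adjusted p = 0.755). Of 17 genes of epithelial-mesenchymal transition, ZEB1, a repressor of E-cadherin, rose from 8.03 and 7.93 to 8.69, 8.69 and 8.57 (0.67 ± 0.0742, adjusted p = 0.00289), and S100A4 fell from 9.96 and 9.59 to 9.07, 9.20 and 9.12. ZEB1 passed with any array left out, and S100A4 missed without untreated array 1. The growth factor receptor FGFR2 was low, at 5.85 and 6.08 against 6.04, 6.30 and 6.22, adjusted p = 0.306. A dimmer FGFR2 probe set was at 4.28 and 4.16 against 5.45, 5.115 and 4.45, with the other co-cultures at 5.17 to 5.42. It did not pass over all probe sets (limma, adjusted p = 0.138).

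Proliferation and metabolism were close to the background. Of 42 cell cycle genes, CDKN1A, the p21 inhibitor of cyclin-dependent kinases, fell from 9.12 and 9.24 to 8.51, 8.36 and 8.38 (-0.76 ± 0.0874, adjusted p = 0.00307), and MCM2, a subunit of the replicative helicase, rose from 10.65 and 10.59 to 10.88, 11.02 and 11.08 but not with any array left out. Of 29 genes of glycolysis and hypoxia 2 fell: ADM (adrenomedullin) from 10.27 and 10.37 to 9.74, 9.77 and 9.70 and the glucose transporter SLC2A3 from 5.10 and 5.06 to 4.46, 4.69 and 4.71. Of 18 genes of cholesterol synthesis 1 rose, FDPS (farnesyl diphosphate synthase), from 10.97 and 10.89 to 11.29, 11.32 and 11.24. Of 26 genes of the unfolded protein and ATF4 responses, PPP1R15A (GADD34) fell from 9.49 and 9.27 to 8.68, 8.35 and 8.75 and DDIT3 (CHOP) rose from 8.56 and 8.54 to 8.89, 8.85 and 8.80. FDPS and DDIT3 did not pass with any array left out, PPP1R15A missed without untreated array 1, and SLC2A3 without either untreated array.

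Of 27 interferon-stimulated genes 3 fell (OASL, GBP1 and IFI27) and 1 rose: HERC5, an ISG15 ligase, was at 6.91 and 6.92 against 7.68, 7.69 and 7.46 and passed with any array left out. OASL went from 7.37 and 7.21 to 6.35, 6.69 and 6.51 and missed without untreated array 1. IFI27 went from 6.26 and 6.33 to 5.63, 5.68 and 5.78 and missed without either untreated array or rhSOST array 1 or 2. Of 38 SR proteins and hnRNPs, which splice RNA, 3 rose (DDX17, RBM15, HNRNPM) and 3 fell (SRSF5, SRSF6, RBM3), and none of the 6 passed without untreated array 1 or without untreated array 2. All of them also missed without rhSOST array 2. Taking the mean of a gene's probe sets turned the sign of DDX17 and RBM3. Over all 14863 genes the balance at an adjusted p under 0.05 (limma) was toward rises, 4.87% against 2.1% that fell. The lists were chosen with earlier results of these data known. Immediate early genes, cytokines and NF-kB genes had the most falls, 12, 9 and 8. Over all these lists, from Wnt ligands to splicing factors, 59 members fell and 31 rose. Without untreated array 1 the counts were 24 and 8, without untreated array 2 they were 35 and 14, and without rhSOST array 2 they were 40 and 11.

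**Figure D3:**
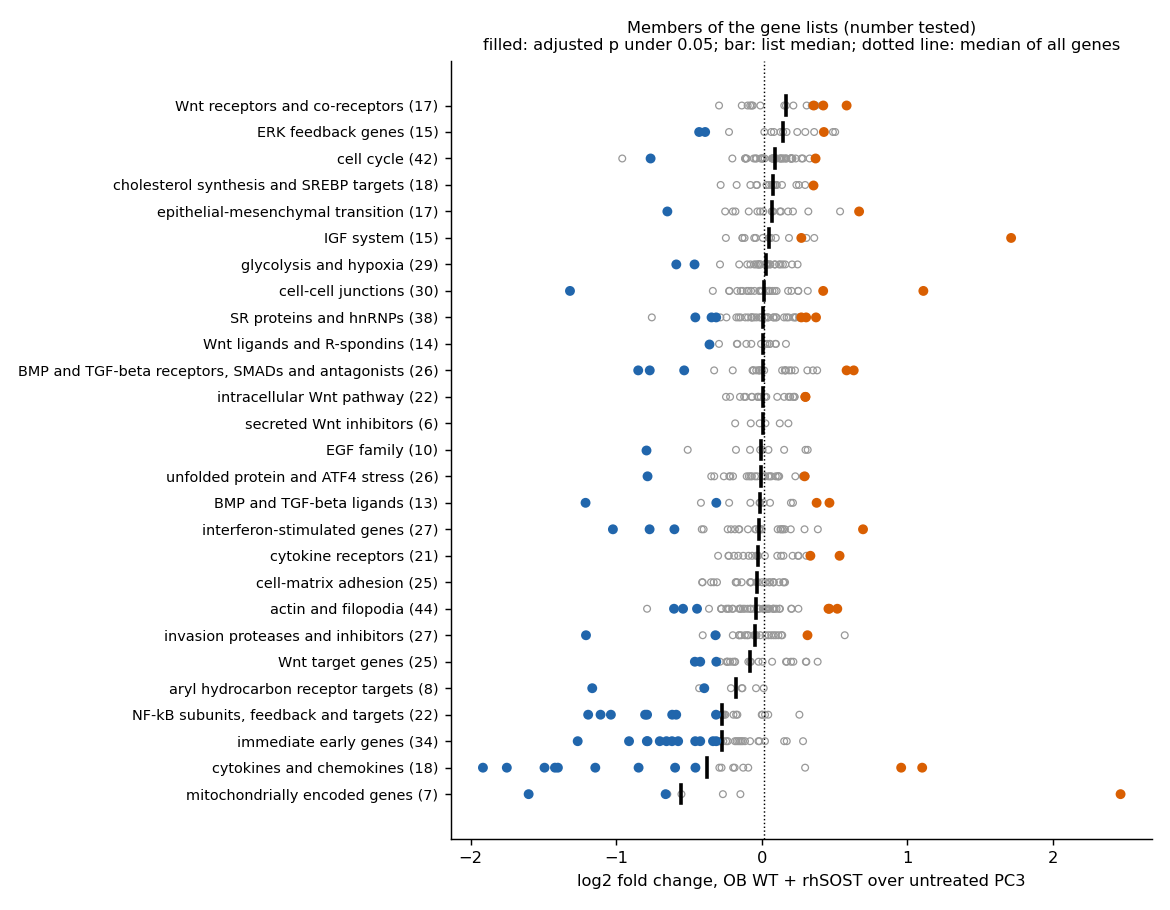
Log2 fold change of OB WT + rhSOST over untreated PC3 (x axis) for the members of 27 gene lists, with the number tested in brackets; filled points passed an adjusted p under 0.05, the bar is the list median and the dotted line the median of all genes, 0.0191. Cytokines, immediate early genes and NF-kB genes have medians of -0.373, -0.275 and -0.27 and most of the filled points on the left, and the Wnt receptors have the highest median, 0.167.

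Counting all 54613 probe sets other than controls, with no filter, gave 52 at least 2-fold higher and 53 lower at an adjusted p under 0.05 (0.0952% and 0.097%). Of these 105, 102 had been kept and 85 carried 1 gene symbol, for 75 genes, of which 38 were those called above. The count of higher probe sets depended on single arrays: it was 159 without rhSOST array 3, 26 without rhSOST array 2 and 26 without untreated array 1, and the count of lower ones was 33 without untreated array 1. The widest change of any called probe set was in one without a gene symbol, at 8.67 and 8.96 on the untreated arrays and 3.31, 3.22 and 3.28 on the rhSOST arrays. On the other 4 co-culture arrays it was at 3.04 to 3.61. Of the other 37 symbols, chosen for mention after their values were seen, 35 also had a tested gene value, which lay in the opposite direction for 13 and passed in the same direction for 8. HMGA2, an architectural chromatin protein, fell by 1.98 at one probe set but differed by -0.08 at its brightest. CXCR4, the receptor of CXCL12 in bone, was higher by 1.38 at a dim probe set, from 3.80 and 4.09 to 5.47, 5.38 and 5.12, and differed by -0.03 at its brightest. CCNI (cyclin I) was higher by 1.98 at one probe set, with values of 7.45, 6.87 and 6.11 on the 3 rhSOST arrays, and by 0.20 at its brightest. EGR1, an immediate early gene whose probe sets were too dim to be kept, fell by 1.20.

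The 3 rhSOST arrays were next set singly against the mean of the untreated arrays, with no test. At the gene level array 1 had 29 genes 2-fold higher and 18 lower, array 2 had 34 and 23, and array 3 had 21 and 57. Higher genes were 0.195%, 0.229% and 0.141% of those tested and lower ones 0.121%, 0.155% and 0.384%. Only 11 genes were 2-fold higher on all 3 arrays and 13 lower on all 3. Changes that a single array had alone numbered 14 higher and 2 lower on array 1, 14 and 5 on array 2, and 3 and 38 on array 3. Across the 33970 kept probe sets the arrays stood further apart. Array 1 had 342 higher (1.01%) and 62 lower (0.183%), array 2 had 169 (0.497%) and 82 (0.241%), and array 3 had 59 (0.174%) and 374 (1.1%). On all 3 arrays 31 were higher and 33 lower.

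Array 1 therefore had mostly rises and array 3 mostly falls. The changes correlated across genes with r of 0.799 for arrays 1 and 2, 0.544 for 1 and 3, and 0.612 for 2 and 3, and across kept probe sets with 0.773, 0.285 and 0.521. These values share the untreated arrays and describe genes, which are not replicates. The 38 genes past the test were on the same side on every rhSOST array and past 2-fold on 26, 34 and 36 of them for arrays 1, 2 and 3. Which untreated array served as the reference also mattered: against untreated array 1 alone, array 1 had 67 genes higher, array 3 had 33 higher and 37 lower, and against untreated array 2 alone array 3 had 86 lower.

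**Figure D4:**
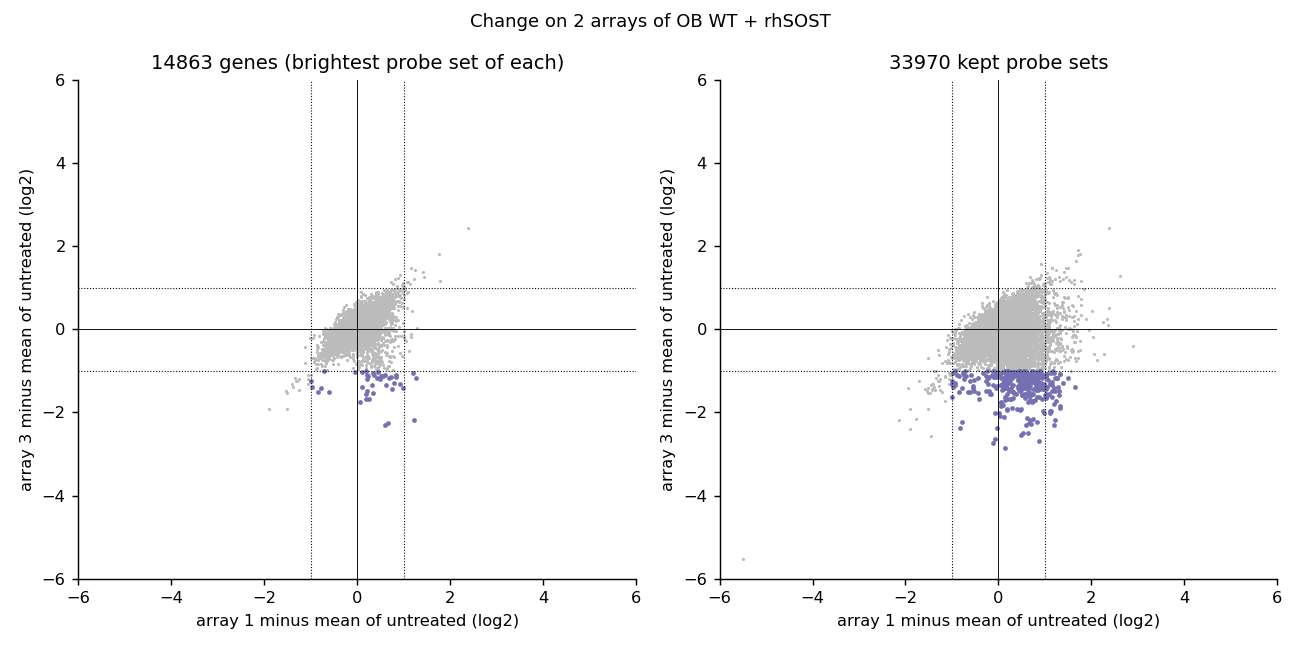
Change on rhSOST array 3 (y axis) against the change on rhSOST array 1 (x axis), each as log2 value minus the mean of the 2 untreated arrays, for 14863 genes at their brightest probe set (left) and 33970 kept probe sets (right); dotted lines mark 2-fold and purple points are 2-fold lower on array 3 but not on array 1. The cloud of purple points that are unchanged or higher on array 1 is denser on the right, where r is 0.285 against 0.544 on the left.

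The 314 probe sets that were 2-fold lower on array 3 alone belonged to 244 genes. Their median changes were 0.516 on array 1 and -0.152 on array 2, and -1.25 on array 3, on which they were chosen. The untreated arrays were apart too: 297 of the 314 were higher on untreated array 2 than on array 1, by a median of 0.641, against 18260 of all 33970 kept probe sets. Few were the brightest of their gene, 12.1% against 43.8% of kept probe sets. The other 589 kept probe sets of the same genes had median changes of 0.0275, 0.0485 and 0.0242 on the 3 arrays. The 206 probe sets 2-fold higher on array 1 alone, of 159 genes, had medians of 1.12, 0.663 and -0.27, with the other probe sets of those genes at 0.0659, 0.0597 and 0.049. Control probe sets of ribosomal RNA were at 10.55 and 9.04 on the untreated arrays and 11.13, 11.22 and 8.61 on the rhSOST arrays, so that array 3 and untreated array 2 were the lowest, and the 3′ minus 5′ difference of ACTB was largest on array 1. The part of these in the array differences was not tested.

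Examples of single genes follow. THRAP3, a splicing and transcription co-activator, had the widest gap of any gene between array 3 and the other 4 arrays, 1.74: its brightest probe set was at 9.70 and 10.49 on the untreated arrays and 10.69, 9.53 and 7.79 on the rhSOST arrays. Another probe set of THRAP3, almost as bright, was at 9.85 and 9.64 against 9.74, 9.80 and 9.97. MALAT1, an abundant nuclear noncoding RNA, was at 9.95 and 10.90 and 11.65, 9.71 and 8.24, highest on array 1 and lowest on array 3, and 8 of its 10 kept probe sets were lowest on array 3. FAM111B, a nuclear protease, TSPAN5, a tetraspanin, and RASEF, a Rab-like GTPase, had gaps of 1.29, 1.27 and 1.25. For LTN1, a ribosome quality control ligase, one probe set was at 6.84 and 7.60 on the untreated arrays and 7.85, 6.61 and 4.73 on the rhSOST arrays, while the brighter one was at 10.51 and 10.48 and 10.58, 10.64 and 10.71. OSBPL8, a lipid transfer protein, went from 8.06 and 9.20 to 9.49, 7.74 and 5.95 at one probe set and was level at its brightest, 10.86 and 10.87 against 10.82, 10.87 and 10.80. The same held for the receptor kinase MET, with 7.95, 6.66 and 5.02 at a dim probe set and 12.70, 12.74 and 12.75 at its brightest, and for ezrin (EZR), with 9.72, 8.59 and 6.85 against 11.21, 11.30 and 11.40. In all, 104 probe sets and 11 genes were at least 2-fold below the other 4 arrays on array 3; none was so on array 1 or 2. On array 1, 12 probe sets were 2-fold above the other 4, and on array 2, 1.

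**Figure D5:**
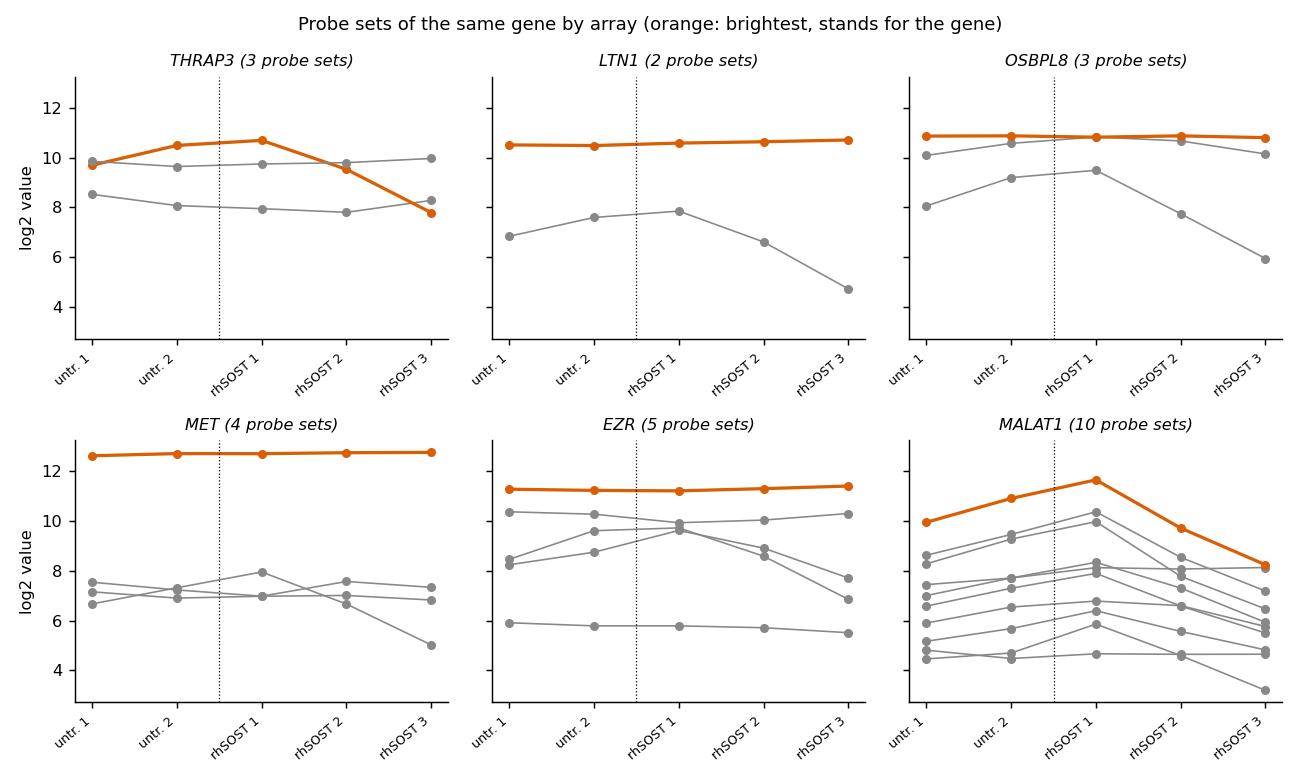
Log2 values (y axis) of every kept probe set of 6 genes on the 2 untreated and 3 rhSOST arrays (x axis); a line joins the values of 1 probe set, orange marks the brightest, and the order of arrays within a group carries no meaning. In LTN1, OSBPL8, MET and EZR a dimmer probe set drops on array 3 while the brightest stays level, and in MALAT1 8 of 10 drop.

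At the gene level the widest gaps above the others were smaller. On array 1 they were CCDC18, MALAT1, RUSC1-AS1, ZNF800 and THRA, by 0.63 to 0.75, and below, LINC01620, RASL10A, CYP4A11, LRRN4 and MDS2, by 0.54 to 0.70. On array 2, PPM1K, a mitochondrial phosphatase, stood 0.52 above, followed by EBF1, PAN3-AS1, CASKIN1 and NPFFR1, and CC2D1A, PPP2R1A, UBXN11, ABHD8 and PITX1 stood 0.53 to 0.55 below. On array 3, ANKRD18A, MIR205HG, MTCL2, DDX11 and HGS stood 0.57 to 0.82 above. These are ranked extremes of 14863 genes on single arrays.

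The study's own lists for OB WT + rhSOST, chosen by the study on these same arrays and so no independent evidence of direction, were read in the same way. Of 14 genes on its list of higher transcripts that were measured, 8 rose at their brightest probe set and 12 passed over all probe sets at their most raised one. At 2-fold and an unadjusted p under 0.05 (limma), 7 of the 14 passed at their most raised probe set. At that probe set the median changes were 0.881, 1.01 and 1.06 on arrays 1, 2 and 3. RAB3B, a vesicle GTPase, was at 6.12 and 5.89 against 6.88, 7.01 and 6.997 at a dimmer probe set and differed by -0.02 at its brightest. RPS24, a ribosomal protein, was at 9.12 and 9.24 against 10.23, 10.26 and 10.53 at one probe set and differed by -0.01 at its brightest. BCL6, a repressor of germinal center B cells, was at 7.86 and 8.01 against 8.82, 8.93 and 8.91 at its brightest probe set. ATP5F1C, a subunit of ATP synthase, was at 5.40 and 5.45 against 6.21, 6.33 and 6.47 at a dimmer probe set and differed by -0.11 at its brightest.

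Of 47 measured genes on the study's list of lower transcripts, 4 fell at their brightest probe set, 2 rose (TRIM4 and DDX17), and the median was -0.00214. At the probe set with the largest fall the medians were 0.176 on array 1, -0.813 on array 2 and -1.71 on array 3, and 45 of 47 were lowest on array 3. At least 2-fold lower were 2, 13 and 45 of them on arrays 1, 2 and 3, and 3 passed the test over all probe sets: GBP1, NFKBIA and KLF6. The same 3 alone passed at 2-fold and an unadjusted p under 0.05 (limma). KLF6 at that probe set was at 9.85 and 9.72 against 8.64, 8.92 and 8.06. GBP1 was at 7.82 and 7.38 against 6.31, 6.41 and 6.24. CCDC13, next by p, was at 5.46 and 5.71 against 4.92, 4.11 and 4.78, with an adjusted p of 0.0751. The largest fall was chosen from the probe sets of each gene, which by itself favors low values.

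The direct comparison with the other co-cultures found no gene that set OB WT + rhSOST apart. Against OB SostKO 0 of 14863 genes passed an adjusted p under 0.05 (limma), with 607 at an unadjusted p under 0.05 and a smallest adjusted p of 0.8. Against OB WT + rhDKK1 0 passed, with 382 at an unadjusted p under 0.05 and a smallest adjusted p of 1. All comparisons with untreated PC3 share its 2 arrays, so the values are given only side by side. The log2 fold change of IL6 was -1.92 with OB WT + rhSOST, -1.84 with OB SostKO and -1.90 with OB WT + rhDKK1. For IGFBP5 it was 1.71, 1.49 and 1.62, and for CXCL1 -1.42, -1.33 and -1.45. Over the 38 genes the value with OB WT + rhSOST differed from that with OB SostKO by a median of 0.108 in size and at most 0.422 (NRK, a kinase gene, 1.08 against 0.66). The difference from OB WT + rhDKK1 was 0.0893 in the median and at most 0.323 (TMT1A, 1.33 against 1.01). NFKBIA was at -1.11 against -0.77 and -0.80, and IL33 at 1.10 against 0.73 and 0.81. A p that misses the threshold does not show that these co-cultures act alike.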

How the data were processed

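Gene expression in PC3 cells was measured on 9 Affymetrix U133 Plus 2.0 arrays. The deposited values are log2 expression values that the authors made with RMA, which corrects background, equates the distributions of the arrays and summarizes the probes of a set. The software version is not given in the sources used here, and no scanner file was used. Arrays have no read depth, and precision depends on how many there were. After the 62 controls were left out, 33970 of 54613 probe sets were kept because on 2 or more of the 9 arrays they were not among the lowest 40% of values. A gene could thus be kept through the arrays of 1 group alone. Of these 28244 carried 1 gene symbol, 1307 several and 4419 none, and symbols were updated to RefSeq (GRCh38.p14). The brightest kept probe set stood for its gene.

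Group means of the 4 groups were fitted with limma 3.58.1 in R 4.3.3 (lmFit, eBayes) and p-values were adjusted by Benjamini-Hochberg over all genes or probe sets. Genes were called at an adjusted p under 0.05 and 2-fold, list members at the adjusted p alone. The fit was tested on simulated data. Promoters were taken from RefSeq. The members, lists and tests were chosen with earlier results of these data known. Named were the 10 largest changes in each direction, up to 6 members of each list by p (otherwise the 2 smallest), genes of the study's text, the 5 widest gaps of each array on each side and 4 genes of each of the study's lists. Alternatives were other filters, normalizations, models and each array left out.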

Additional observations from a re-analysis of the deposited data

How the results depend on the processing

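The 19 higher genes became 11 when the kept probe sets of a gene were averaged, 724 without the fold limit, 1 by Tukey's comparison after adjustment, and 11 by the methods' paired test unadjusted but 0 after Benjamini-Hochberg. The 19 lower genes became 312, 1, 6 and 0 under the last 4 of these. With each array left out in turn there were 17 to 27 higher and 14 to 19 lower genes; leaving out an untreated array leaves 1, assumed to vary like the other groups. Of 105 probe sets, the 52 higher became 17 and the 53 lower 29 when only the 2 groups entered the fit, and leaving out arrays gave 26 to 159 higher and 33 to 59 lower. Of list members, the 31 that rose became 17 with averaged probe sets, 16 with only the 2 groups and 47 with array weights, and 8 to 25 with an array left out, while the 59 that fell became 24 to 61. Averaging probe sets reversed DDX17 (-0.0408), IL13RA1 (-0.0367), RBM3 (0.0397) and TRIM4 (-0.141), and no other setting reversed a named gene.

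The replicate numbers are not stated to pair the samples, and the deviations of same-numbered arrays correlated at -0.27 and -0.0037. With the replicate block 38 genes passed, 31 of them shared with the 38 above, the higher probe sets numbered 132 and the list members that rose 13. Set singly against untreated array 1, array 1 had 67 higher genes and array 3 had 33 higher and 37 lower; against untreated array 2, array 3 had 86 lower. Over every kept probe set, an alternative added after seeing the data, the higher and lower counts were 342 and 62, 169 and 82, and 59 and 374 for arrays 1, 2 and 3. The hybridization controls differed by -0.51, and by -0.82 to -0.20 with an array left out. The poly-A controls ranged from -4.86 to -4.21, the 3′ minus 5′ difference of ACTB from 0.689 to 1.11 and that of GAPDH from 0.00875 to 0.127. No gene passed against either other co-culture with any array left out (limma; 607 and 382 at an unadjusted p under 0.05 with all arrays).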
